A study of Citrus maxima with 6 samples.

Results

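A pair of genes was followed through the ripe pericarp of pummelo, one matching an oligopeptide transporter and one matching a heavy metal-associated protein, 2 of the 29406 genes in the deposited table. The best Swiss-Prot match of Cs4g08370 was oligopeptide transporter 1 (OPT1) of Arabidopsis, and that of Cs2g13790 was heavy metal-associated isoprenylated plant protein 26 (HIPP26) of Arabidopsis. They were chosen by identifier because they differed in opposite directions between genotypes in these same libraries. For this reason their difference between genotypes is given as a description, with no test. Both names rest on sequence matches listed by the study, and the listed match of Cs4g08370 to OPT1 is less close by its E-value than that of the neighbouring Cs4g08380 to OPT5.

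The wild type (WT) was the 'Guanxi' cultivar of pummelo (Citrus grandis, also called Citrus maxima), and the mutant (MT) was a bud mutant of it with an orange pericarp, which arose spontaneously and was propagated by grafting. Fruit of both genotypes was untreated and taken when ripe, and each genotype gave 3 libraries of poly(A) RNA, described as biological replicates. The MT is a single clonal line, so its libraries repeat 1 mutation event. How many trees or fruits stand behind a library is not stated, so the spread given here is that between libraries. The RPKM scale rested on 9253681 reads in the smallest library (WT1) to 11108186 in the largest (MT1). MT3 stood apart in its genotype, since over all tested genes its Pearson's r with the WT libraries (0.964 to 0.968, across genes, which are not independent replicates) was above the 0.946 to 0.961 found between MT libraries. MT2 was the MT library least like WT, with an r of 0.900 to 0.920 to the WT libraries, against 0.942 to 0.956 for MT1. Whole pericarp holds several cell types, and in bulk tissue fewer cells of a type and less RNA per cell cannot be told apart. The label of the tissue was not checked against pericarp markers here.

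Oligopeptide transporters are membrane proteins that carry short peptides, and some members of the family carry glutathione or metals bound to small chelators. They take part in the movement of organic nitrogen, sulfur and metals between tissues. Proteins of the HIPP family hold a metal-binding domain similar to that of copper chaperones and a lipid anchor near the C terminus. In Arabidopsis, HIPP26 is known from responses to cold, drought and salt and binds a homeodomain transcription factor.

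The sequences at hand for the oligopeptide transporter pair, Cs4g08370 and Cs4g08380, were the qRT-PCR primers of the study. They are shown because they give the stretches by which the transcripts of these related genes were to be measured separately. They are written 5′ to 3′, and capitals mark the last 5 bases at the 3′ end, from which the polymerase extends.
Cs4g08370 forward: ggagcctttcatttacagTGCAA
Cs4g08370 reverse: aattcattctggatctgcTGCAT
Cs4g08380 forward: ccattttgaaatcaccttcATTGA
Cs4g08380 reverse: caggatggcaactttcATGCT
The longest run that a primer of Cs4g08370 shared with a primer of Cs4g08380, on either strand, was 7 bases, where the primers have 21 to 24 bases. Primers were compared only with each other. Whether a primer also matches the transcript of the other gene was not checked, as transcript sequences were not at hand. Sequences for Cs2g13790 were not used here.

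Cs4g08370 was far lower in MT than in WT. In RPKM, which is reads scaled to the length of the gene's exons and to the size of the library, WT1 had 20.2, WT2 had 41.2 and WT3 had 35.7. The MT libraries had 1.67 (MT1), 0.342 (MT2) and 0.345 (MT3). Even the highest MT library was far under the lowest WT library, and MT1 stood above the other MT libraries. In 5.36% of all tested genes the MT libraries lay wholly below WT. Averaged per genotype, WT reached 32.4 ± 10.9 RPKM and MT 0.787 ± 0.768 RPKM (mean ± SD, n = 3 each), a WT mean 41.1 times that of MT. This ratio rests on MT1, without which it was 94.2, and it was 32.1 to 48.9 without any other single library. On the log2 scale, with 0.5 added to each RPKM, the difference of MT from WT was -4.77 (standard error 0.44).

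The median gene itself was 0.15 higher in MT on this log2 scale, a shift that median-ratio rescaling of the libraries removed. All log2 differences below are therefore MT against WT with the shift of the median gene subtracted, and on that scale Cs4g08370 stood at -4.92. This was the 2nd lowest of the 16719 genes tested, those whose RPKM averaged at least 0.3. Of these, 27 genes (0.161%) were lower in MT by 3 or more on the log2 scale, which is 8-fold.

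Cs2g13790 showed the opposite pattern. WT1 had 1.48 RPKM, WT2 had 2.42 and WT3 had 2.56. The MT libraries had 19.6 (MT1), 43.8 (MT2) and 28.4 (MT3). Every MT library exceeded every WT library, as in 23.3% of all tested genes. The gap between the nearest libraries of the genotypes was wider than the range within WT but narrower than that within MT. Per genotype, WT reached 2.15 ± 0.584 RPKM and MT 30.6 ± 12.3 RPKM (mean ± SD, n = 3 each), so that the MT mean was 14.2 times that of WT. The log2 difference was 3.35 (standard error 0.32), the 18th highest among the genes tested, of which 25 (0.15%) were higher by 3 or more.

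**Figure D1:**
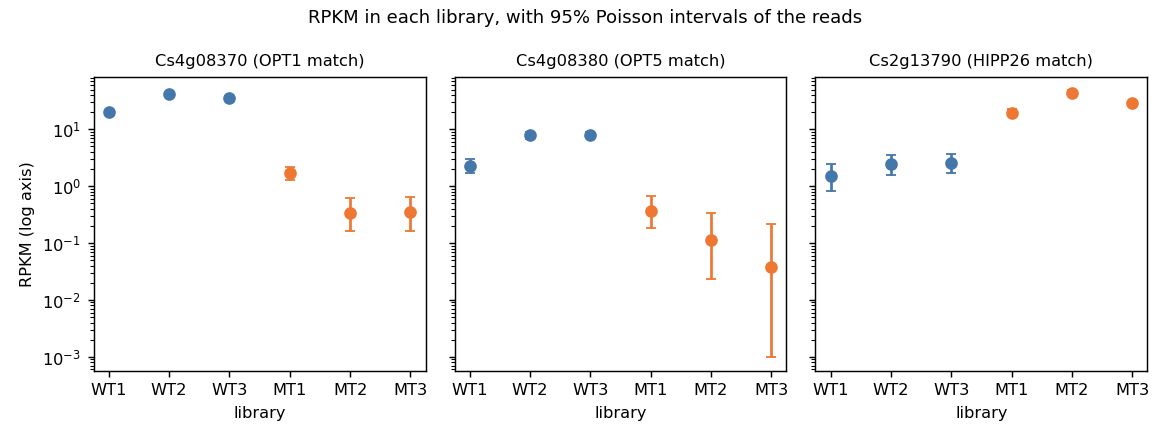
RPKM (log axis) of Cs4g08370, Cs4g08380 and Cs2g13790 in the 3 WT (blue) and 3 MT (orange) libraries, with 95% Poisson intervals that cover counting error only. The oligopeptide transporter matches are lower and the HIPP26 match is higher in every MT library, and MT1 is the MT library nearest to WT in each panel.

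When both genes are set against each other inside a library, the scaling of that library cancels. The RPKM of Cs4g08370 was 13.6 times that of Cs2g13790 in WT1, 17.0 times in WT2 and 14.0 times in WT3. In the mutant the order was turned, with Cs2g13790 at 11.7 times the RPKM of Cs4g08370 in MT1, 128 times in MT2 and 82.3 times in MT3. The ratio thus stayed within a narrow range in WT and varied widely in MT, where MT1 was apart from the others. As log2 of the ratio, with 0.5 added to each RPKM, WT averaged 3.60 ± 0.23 and MT -4.67 ± 1.31 (mean ± SD, n = 3 each), and MT minus WT was -8.27.

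Ranked within each library, the genes exchanged positions. The OPT1 match stood at the 81.6th percentile of all 29406 genes in WT1, the 90.6th in WT2 and the 88.8th in WT3, and at percentiles 53.7, 42.5 and 43.9 in MT1, MT2 and MT3. For the HIPP26 match these percentiles were 53.6, 58.0 and 57.9 in WT and 81.0, 90.3 and 85.7 in MT. Each gene was thus among the more abundant transcripts in one genotype and far lower in the other. Percentiles near the middle do not stand for mid-level expression, since 8741 (MT2) to 10853 (WT1) genes had no read. In MT2, percentile 42.5 for the OPT1 match was 0.342 RPKM, from 10 reads.

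Reads behind these values were recovered as whole numbers from the steps between RPKM values. Cs4g08370, with an exon length of 2958 bp, had 553, 1233 and 1094 reads in WT1, WT2 and WT3 and 55, 10 and 10 reads in MT1, MT2 and MT3. Cs2g13790, with an exon length of 1021 bp, had 14, 25 and 27 reads in the WT libraries and 222, 442 and 284 in the MT libraries. The low side of either gene therefore carried few reads. Relative to the library totals, the summed reads of Cs4g08370 were 39.8 times as many in WT as in MT, with 95% limits of 31.6 and 50.7 (exact, Clopper-Pearson). MT1 held 55 of the 75 MT reads, and without it the ratio was 95.3, with limits of 61.6 and 156. Those of Cs2g13790 were 13.9 times as many in MT as in WT, with limits of 10.8 and 18.1. The limits cover counting error only.

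The spread between libraries exceeded counting error in the genotype where a gene was abundant. In WT the coefficient of variation of Cs4g08370 was 33.6%, where the reads alone would give 3.43%, and it was larger than that of 94.0% of the genes within 2-fold of the same WT level. In MT, Cs2g13790 had a coefficient of variation of 40.1% against 5.86% from counting, larger than that of 91.0% of genes at a like MT level. Both genes thus varied more between libraries than most genes of their abundance. In WT, where Cs2g13790 was low, its value of 27.2% was near the 22.2% that counting would give. At its low MT level Cs4g08370 had 97.6%, where counting would give 27.0% and genes of a like MT level had a median of 42.6%, with 92.2% of them below it.

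MT1 was the MT library nearest to the WT mean for both genes. MT2 was the farthest for Cs2g13790, while for Cs4g08370 MT2 and MT3 could not be told apart, with 10 reads each and intervals of 0.164 to 0.629 and 0.166 to 0.635 RPKM. Across the 4789 tested genes whose genotypes did not overlap (28.6% of those tested), the nearest library was MT3 for 54.5%, MT1 for 36.8% and MT2 for 8.67%, and MT2 was the farthest for 71.7%. So the library nearest to WT for both genes was the second most common one. Its share differed by direction. Among the 896 of these genes lower in MT, MT1 was nearest for 23.4% and MT3 for 61.3%. Among the 3893 higher in MT, the shares were 39.9% and 53.0%. On the log2 scale, relative to the median gene of each library, Cs4g08370 stood at -3.94 in MT1, -5.45 in MT2 and -5.37 in MT3 from its WT mean. For Cs2g13790 the positions were 2.86, 3.87 and 3.32.

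Among the WT libraries, WT1 had the lowest RPKM of both genes, as it did for 25.1% of all tested genes. The Poisson interval of Cs4g08370 in WT1, 18.6 to 22.0 RPKM, did not reach those of WT2 (38.9 to 43.5) or WT3 (33.7 to 37.9). For Cs2g13790 the WT intervals overlapped, with 0.810 to 2.49 RPKM in WT1 and 1.68 to 3.72 in WT3, and no difference within WT was detectable at this depth. Without WT1, the log2 difference was -5.25 for Cs4g08370 and 3.12 for Cs2g13790.

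**Figure D2:**
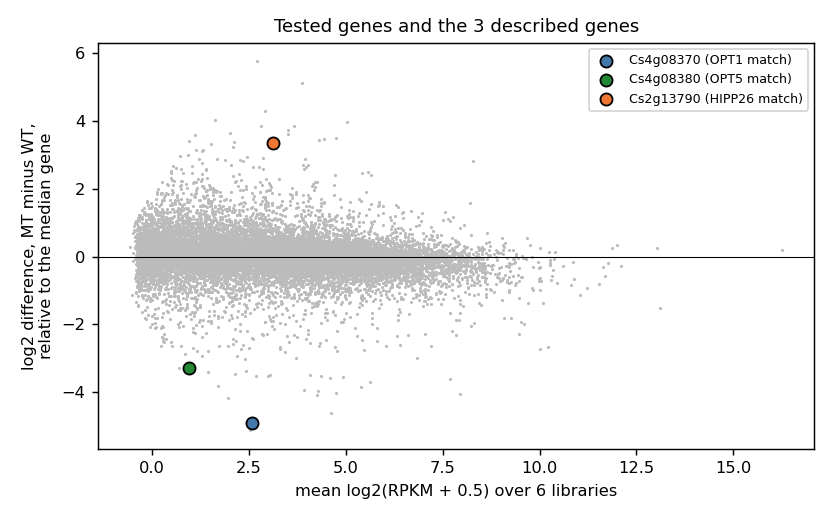
Log2 difference of MT from WT with the median gene set to 0 (vertical axis) against mean log2(RPKM + 0.5) over 6 libraries (horizontal axis) for the 16719 genes tested, 1 grey point per gene. Cs4g08370 lies at -4.92, Cs4g08380 at -3.29 and Cs2g13790 at 3.35.

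The identifier that follows Cs4g08370 in number is Cs4g08380, which matches oligopeptide transporter 5 (OPT5) of Arabidopsis, another member of the same family. It had the same direction at a lower level. WT1 had 2.28 RPKM, WT2 had 7.88 and WT3 had 7.999, and the MT libraries had 0.373 (MT1), 0.114 (MT2) and 0.0384 (MT3). As with Cs4g08370, WT1 was the lowest WT library and MT1 the highest MT library. The genotypes did not overlap, with MT wholly below WT as in 5.36% of all tested genes. WT reached 6.05 ± 3.27 RPKM and MT 0.175 ± 0.175 RPKM (mean ± SD, n = 3 each). The MT values rested on 11, 3 and 1 reads, and the summed reads were 33.7 times as many in WT as in MT, with exact Clopper-Pearson limits of 20.2 and 60.6 that cover counting error only. Without MT1, which held 11 of the 15 MT reads, the ratio was 80.7, with limits of 31.3 and 297.

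In limma across all tested genes, Cs4g08380 had a log2 difference of -3.29 (standard error 0.47) and an adjusted p of 0.0594, so it did not pass 0.05. That threshold was passed by 6 of all tested genes (0.0359%), 3 in each direction (0.0179% each). Without MT3 Cs4g08380 passed, with an adjusted p of 0.0336, and over the other alternatives its adjusted p was 0.0535 to 0.246. All MT values of Cs4g08380 lay below the 0.5 added to RPKM, which makes its log2 difference smaller in size. The difference was -4.64 with 0.1 added and -5.34 in limma voom. The gene also stands in a list that the study chose on these libraries, which is no independent evidence of its direction.

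Within each library, Cs4g08370 was more abundant per length than Cs4g08380. Its RPKM was 8.87, 5.23 and 4.47 times that of Cs4g08380 in WT1, WT2 and WT3, and 4.49, 2.995 and 8.99 times in MT1, MT2 and MT3. The ranges of the genotypes overlapped, so no difference of proportion within the pair was seen, although the MT ratios rest on few reads of Cs4g08380. Only uniquely mapped reads entered the RPKM values, so reads from any stretch that both genes share can be missing from either.

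Genes with neighbouring identifiers were then described, 5 on each side of each member. For Cs4g08370, 9 of the 10 were tested, and 3 had an unadjusted p under 0.05 in limma, as had 21.8% of all tested genes. After adjustment 0 passed 0.05, where 0.0359% of all tested genes did, so this 0 says little about the neighbours. Besides Cs4g08380, the gene that stood apart was Cs4g08360, the next lower identifier, for which no name was given in the sources used here. Cs4g08360 had 0.559, 0.510 and 0.115 RPKM in WT and 1.86, 6.04 and 2.36 in MT. It was thus higher in every MT library than in any WT library, as were 23.3% of all tested genes, and opposite to the transporter matches beside it. Its log2 difference was 1.87, with an adjusted p of 0.0949 in limma. The 7 other tested neighbours of Cs4g08370 differed by -0.15 to 0.38. Among the tested neighbours, values as low in MT as those of the transporter pair were therefore seen in no other gene.

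Of the 10 identifiers around Cs2g13790, 4 were tested and 3 were listed at 0 in every library. The nearest on each side, Cs2g13780 and Cs2g13800, were not tested, the first with no read in any library. Of the tested neighbours, Cs2g13760 had the largest log2 difference, 0.82 (adjusted p = 0.145 from limma), and the others lay at -0.33 to 0.14. In limma 1 of the 4 had an unadjusted p under 0.05, as had 21.8% of all tested genes. After adjustment 0 passed, where 0.0359% of all tested genes did, so this 0 says little about the neighbours. The difference of 3.35 for Cs2g13790 was larger in size than that of any of them.

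**Figure D3:**
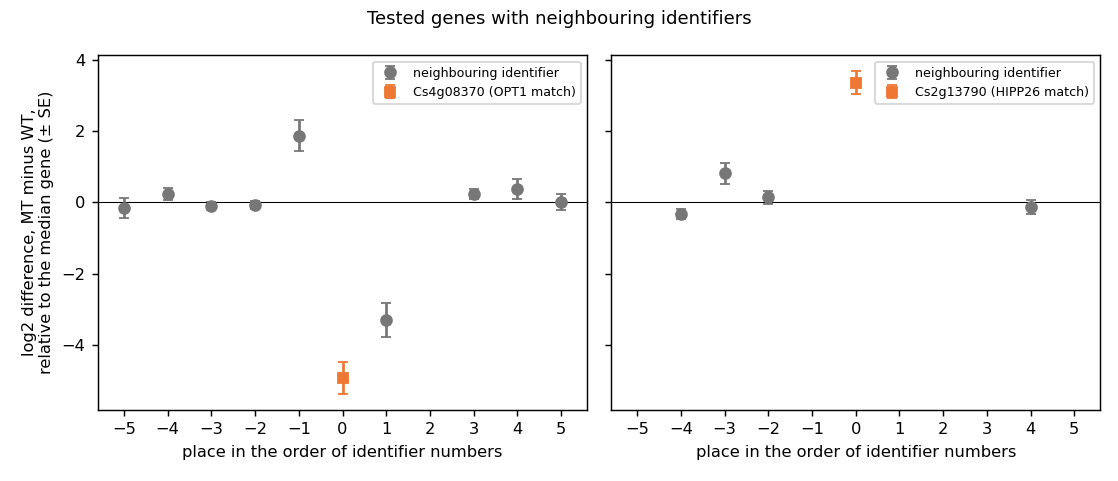
Log2 difference of MT from WT with the median gene set to 0 (± standard error) for tested genes by place in the order of identifier numbers, 5 places on each side of Cs4g08370 (left) and Cs2g13790 (right). Beside Cs4g08370 at -4.92, the next identifier is at -3.29 and the previous one at 1.87, while its other neighbours lie between -0.15 and 0.38, and Cs2g13790 lies at 3.35 with its neighbours between -0.33 and 0.82.

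Other genes of transport, metal binding and sulfur metabolism were taken from the names in the study's list of differing genes. Since the study chose that list on these libraries, their directions are not independent evidence. Apart from both members, the 4 lists held 24 genes, all tested. In MT, 8 were wholly above and 15 wholly below the WT libraries, where 23.3% of all tested genes lay wholly above and 5.36% wholly below. In limma the adjusted p of the 24 ran from 0.0532 to 0.173, so that 0 passed 0.05, which 0.0359% of all tested genes passed. At 0.1, 14 passed, as did 2.55% of all tested genes (2.02% higher and 0.538% lower in MT). All 24 had an unadjusted p under 0.05, as had 21.8% of all tested genes. The same held in limma voom on the recovered reads, where 3582 of 16719 genes had such a p. After adjustment 0 of all 16719 genes passed in that fit, so 0 of the 24 says nothing about these genes. These genes were chosen as differing on the same libraries, so their low unadjusted p values are no independent evidence. Without MT3 the number past an adjusted 0.05 was 20 of the 24, in a fit that called 863 of 16714 genes (5.16%).

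Among carriers of peptides, nitrate and amino acids, 5 of the 7 further genes were lower and 2 were higher in MT, with no overlap in any. Of all tested genes, 5.36% lay wholly below and 23.3% wholly above WT. The median log2 difference was -1.52, where that of all tested genes is 0. After Cs4g08380, the lowest was Cs2g09600, which matches CAT1, a carrier of cationic amino acids in Arabidopsis. Its libraries had 10.01, 14.4 and 16.6 RPKM in WT and 1.18, 1.38 and 3.58 in MT (log2 difference -2.71, adjusted p = 0.0558 from limma). Like Cs4g08370 it was low in every MT library, but here MT3 and not MT1 was the nearest to WT.

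Matches to peptide and nitrate transporters lay on both sides. On the lower side, the matches to PTR5, a peptide carrier (Cs6g07780), and NRT1.5, a nitrate carrier (Cs7g22760), had log2 differences of -2.34 and -1.52 (adjusted p = 0.0728 and 0.114 from limma). On the higher side, Cs5g04330 had 15.2, 30.0 and 14.1 RPKM in WT and 100.01, 209 and 82.1 in MT, with a log2 difference of 2.50 (adjusted p = 0.0608 from limma). A further such match, Cs6g07140, had 0.405, 0.509 and 0.498 RPKM in WT and 2.91, 2.65 and 2.15 in MT (log2 difference 1.51, adjusted p = 0.0532). The direction of these last genes was that of Cs2g13790 and opposite to that of the oligopeptide transporter matches.

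The list of metal-binding proteins held 7 genes besides Cs2g13790, with a median log2 difference of -1.02. In the MT libraries 3 were wholly above and 4 wholly below WT, where 23.3% and 5.36% of all tested genes were. Those higher were the 3 matches to L-ascorbate oxidase homologs, relatives of the multicopper oxidases. Whether these homologs bind metal was not checked. Of these, Cs2g21220 had 3.87, 1.94 and 1.20 RPKM in WT and 29.1, 59.5 and 18.4 in MT (log2 difference 3.47, adjusted p = 0.0540 from limma), a size near that of Cs2g13790, and MT2 was again the highest library.

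Those lower were matches to laccase-7 (Cs6g07400), a copper oxidase, to umecyanin, a blue copper protein, and to the purple acid phosphatases PAP3 and PAP20, enzymes with metal centres. Laccase-7 had 10.6, 45.7 and 35.8 RPKM in WT and 2.65, 1.58 and 2.18 in MT (log2 difference -3.50, adjusted p = 0.0608 from limma). The PAP20 match Cs6g15040 had 2.26, 6.27 and 8.95 RPKM in WT and 0.304, 0.684 and 0.276 in MT (log2 difference -2.78, adjusted p = 0.0723). The metal-binding list thus held genes on both sides, and besides Cs2g13790 its higher members were only the L-ascorbate oxidase homologs.

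In the list of inorganic ion transport, 3 of 7 genes were wholly above and 3 wholly below WT, where 23.3% and 5.36% of all tested genes were. The median log2 difference was -1.15. PHT1-7 (Cs5g29860), a phosphate transporter match, had 2.47, 17.5 and 9.14 RPKM in WT and 37.5, 56.9 and 27.8 in MT, with a log2 difference of 2.15 (adjusted p = 0.126 from limma). The remaining gene was the proton pump match AHA10 (Cs1g16150), with 68.1, 38.8 and 67.8 RPKM in WT and 1.91, 0.222 and 39.6 in MT, and here MT3 lay within the WT range. Its log2 difference of -3.94 had a standard error of 1.30, against 0.44 for Cs4g08370.

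All 3 genes of the cysteine and glutathione list were wholly lower in MT, as were 5.36% of all tested genes. They too were chosen as differing in these libraries. Gamma-glutamyltranspeptidase 3 (Cs4g13090), a match to an enzyme that breaks down glutathione, had a log2 difference of -1.94 (adjusted p = 0.0608 from limma). The cysteine synthase match (Cs9g06970) differed by -1.69 (adjusted p = 0.0532) and that of cyanoalanine synthase 2 (orange1.1t00386) by -2.33 (adjusted p = 0.137). Each was smaller in size than the difference of Cs4g08370.

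**Figure D4:**
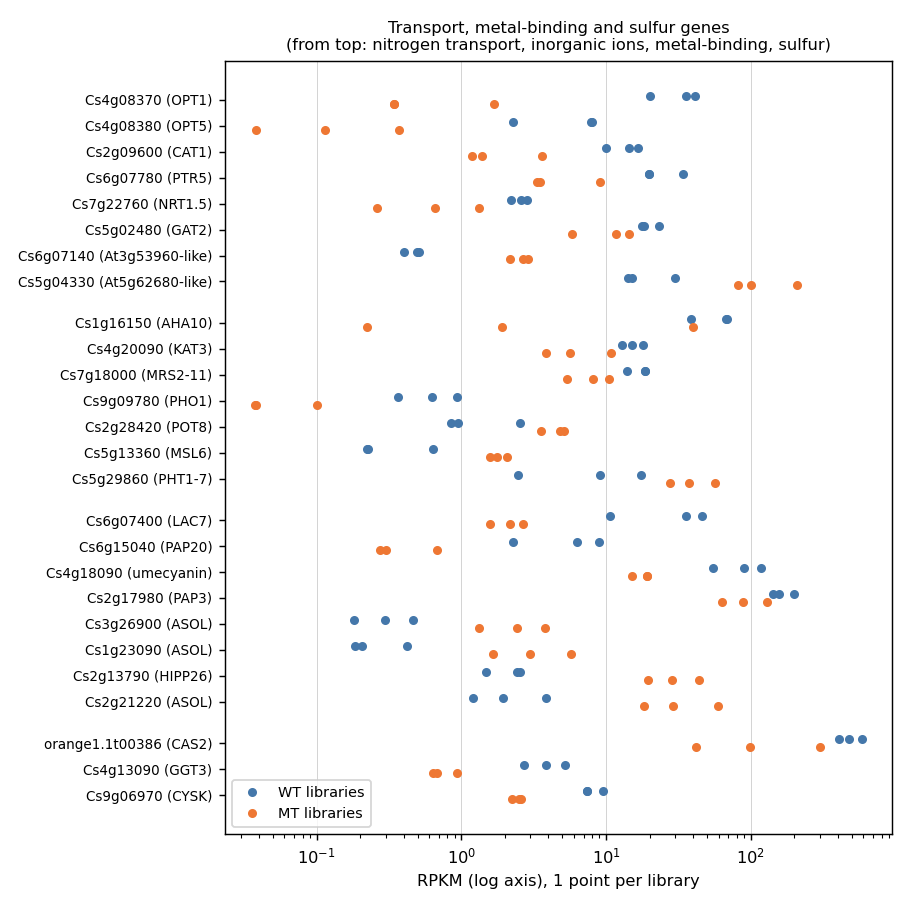
RPKM (log axis) of 26 transport, metal-binding and sulfur genes, both members included, 1 point per library, WT blue and MT orange, in 4 groups sorted by log2 difference. WT and MT points separate for each gene but AHA10 (Cs1g16150), whose MT3 library lies among the WT libraries.

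Genes grouped by cell type or tissue of Arabidopsis are given beside the members, as 2 lists. How specific each gene is to its tissue was not checked, in Arabidopsis or in pericarp. The 4 genes listed under xylem or vascular tissue (XSP1, LAC7, PHO1 and NRT1.5 matches) had MT values wholly below WT, as had 5.36% of all tested genes. Their summed RPKM was 31.7 to 59.7 in WT and 6.51 to 12.9 in MT, and none was at 0 in every library. Much of the WT sum came from the LAC7 match alone, with 10.6, 45.7 and 35.8 RPKM in WT1, WT2 and WT3, and a place of LAC7 in xylem was not established here. In limma 0 of the 4 passed 0.05 (adjusted p 0.0608 to 0.131), and all 4 had an unadjusted p under 0.05, as had 21.8% of all tested genes. Of 5 genes known from epidermis or stomata, 3 (EPFL9, HDG5 and ASPG1 matches) were wholly above and 2 (MUTE and KAT3 matches) wholly below WT, where 23.3% of all tested genes lay wholly above, and the summed RPKM of 39.3 to 45.8 in WT overlapped the 32.3 to 51.6 in MT. The EPFL9 match was at 0 in all WT libraries, and in limma 1 of the 5, HDG5, passed 0.05 (adjusted p = 0.0383), as did 0.0359% of all tested genes. These genes too came from the list chosen on these libraries. Of the 4 listed under xylem or vascular tissue, 3 (LAC7, PHO1 and NRT1.5) were already counted in the lists above, as was 1 of the 5 others (KAT3). Their part in the levels of Cs4g08370 and Cs2g13790 was not tested.

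The profiles most like those of both members were sought among the tested genes as the smallest Euclidean distance between log2(RPKM + 0.5) values, centred on the mean of each gene over the 6 libraries. Closest to Cs4g08370 was the laccase-7 match (Cs6g07400), at a distance of 2.08, again with WT1 lowest of WT and MT1 highest of MT. Cs4g08380 followed at 2.17, then Cs8g04940 (no name given) at 2.45, Cs3g11760 (steroid 5-beta-reductase match) at 2.55 and Cs3g04540 (glycinin G3 match) at 2.58.

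The nearest profiles to Cs2g13790 were closer. They were Cs5g12270 (no name given) at 0.77, Cs8g08820 (aquaporin PIP2-6 match) at 0.78, Cs1g03800 (no name given) at 0.83, Cs2g25040 (triacylglycerol lipase 2 match) at 0.91 and Cs1g16010 (receptor-like kinase match) at 0.96. The aquaporin match Cs8g08820, a water channel relative, had 0.0696, 0.255 and 0.125 RPKM in WT and 3.36, 10.9 and 3.82 in MT. In all 5, MT2 was the highest library, as it was for Cs2g13790. These genes were found by their likeness in the same libraries, so no test was run.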

How the data were processed

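Pericarp RNA of 3 WT and 3 MT libraries was read as 100 bp single-end reads. The authors filtered the reads, aligned them with TopHat to the sweet orange genome and gave expression as RPKM of unique alignments. The submitters' processing notes name Bowtie2 2.1.0. The read counter and gene lengths are not given in the sources used here. The deposited RPKM table covers 29406 genes, with 0 columns left unused, and no scaling between libraries is described.

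Library totals and exon lengths were worked out from the spacing of RPKM values, with the shortest length that made every value of a gene whole within 0.005 reads (100% of 23454 genes with an RPKM above 0). Where the reads of a gene share a common factor, the recovered reads are too few by it.

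To compare MT with WT, 0.5 was added to RPKM, log2 was taken, and the 16719 genes averaging 0.3 RPKM or more were fitted in limma 3.58.1 (R 4.3.3, eBayes with an intensity trend, no block), with Benjamini-Hochberg adjustment at 0.05. The deposited values are RPKM, and DESeq, the count model of the authors, was not run on the recovered reads. Of the fits, only limma voom used those reads. The numbers of genes passing here are therefore not those of the study, whose list of differing genes came from DESeq. Standard errors and adjusted p are those before the median gene was subtracted. The script was also tested on simulated data.

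Names are Swiss-Prot matches listed by the study. The genes named are both members, the genes of 6 lists with values for up to 4 of each (largest differences in each direction), 5 neighbouring identifiers on each side, and the 5 nearest profiles of each member. Members and lists were chosen with earlier results of these data known. Coordinates, qRT-PCR and metabolite values were not used here. Other steps used Python 3.11.15, numpy 2.4.6, pandas 2.3.3, scipy 1.17.1 and matplotlib 3.10.9. Alternatives were other pseudocounts, other filters, 2 rescalings, eBayes without the trend, a replicate block, limma voom and leaving out each library.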

Additional observations from a re-analysis of the deposited data

How the results depend on the processing

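Both members kept their direction in all 15 alternatives. This is no test of the direction, since they were chosen for it and their genotypes did not overlap in any library. For Cs4g08370 the log2 difference was -5.63 when 0.1 was added to RPKM and -5.80 in limma voom, and leaving out single libraries gave -5.40 to -4.65. For Cs2g13790 that range was 3.10 to 3.60. Ratios of linear RPKM and of reads without single libraries were added after seeing the data, and those of mean RPKM ran from 32.1 to 94.2 for Cs4g08370 (94.2 without MT1), 11.2 to 16.8 for Cs2g13790 and 24.9 to 79.3 for Cs4g08380 (79.3 without MT1). The log2 ratio of Cs4g08370 to Cs2g13790 differed by -9.38 in limma voom, and by -9.003 to -7.75 when single libraries were left out. For Cs4g08380 that range was -3.86 to -2.998, and the value without MT3 was -3.15, past the threshold. With 0.1 added to RPKM the log2 difference of Cs4g08380 was -4.64, and in limma voom -5.34.

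The number of genes past an adjusted p of 0.05 was 6 and depended on the fit. It was 10 when 0.1 was added, 11 after median-ratio rescaling (4 higher and 7 lower in MT, against 3 and 3), 15 without the trend and 0 in limma voom, where 3582 genes had an unadjusted p under 0.05. Leaving out single libraries gave 0 to 863 genes, with 863 without MT3, 11 without MT2, 5 without MT1, and 0 without WT1, WT2 or WT3 (2260 to 2977 at an unadjusted p under 0.05). With the replicate number as a block it was 122 genes. Of the transport, metal and sulfur genes, 2 passed without the trend, 4 with the replicate block, and 0 to 20 when single libraries were left out. Same-numbered libraries are not said to share a tree or day, and their deviations correlated at -0.05, 0.19 and 0.16, so the numbers were not taken as a pairing. The cause of these changes was not tested. Fold changes are limited by the 10 to 55 reads a library for Cs4g08370 in MT and the 14 to 27 for Cs2g13790 in WT.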
